A study of Homo sapiens with 6 samples.

Results

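The YAP and TAZ pathway genes described here are YAP1, WWTR1, TEAD1, LATS2, CCN1, CCN2, ANKRD1, AMOTL1, AMOTL2 and AJUBA. They were listed by name, with earlier results of these data known, and every probe set that the platform annotation of the Affymetrix HG-U133 Plus 2.0 array assigns to one of these symbols was taken apart from the others. This gave 26 probe sets for 10 genes, out of 54675 probe sets and 19775 named genes on the array. The arrays measured total RNA of Hep3B, a line of human liver cancer cells, in 2 groups. Clone D20 carries the plasmid siSDHB, directed against SDHB, a subunit of succinate dehydrogenase (3 arrays, A to C). The control is clone 2 of cells with the plasmid pU6, called pU6-2 here (3 arrays, A to C). Both clones were kept under G418 and harvested near confluence. Each group is thus a single clone, so that silencing and clone cannot be told apart. No label says that the arrays of a clone came from separate cultures, and the p-values below cover only the scatter among these arrays, which may be technical. The signal of SDHB was not analysed here.

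YAP1 and WWTR1 encode the paralogous co-activators YAP and TAZ, which have no DNA-binding domain of their own and reach promoters through the TEAD transcription factors. The Hippo kinase cascade, with LATS1 and LATS2 at its end, phosphorylates YAP and TAZ and keeps them out of the nucleus, and angiomotins hold them at junctions and in the cytoplasm. CCN1, CCN2, ANKRD1, AMOTL2, LATS2 and AJUBA are known as genes that YAP, TAZ and TEAD switch on, so that several inhibitors of the pathway are also its targets. In liver the pathway is known for control of organ size and of hepatocyte identity. Its activity is set by phosphorylation and location of the proteins, which RNA arrays do not measure.

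In D20 the RNA of WWTR1, CCN1, CCN2, AMOTL1, AMOTL2, LATS2 and AJUBA was higher than in pU6-2, while no probe set of YAP1, TEAD1 or ANKRD1 passed the test in either direction. Of the 26 probe sets 25 passed the filter on dim signals and were tested. The filter was on the mean of log2(signal + 16) over all arrays, with a cutoff that corresponds to 43.2 signal units. It is not a mean of the signals themselves. Of the 25 tested, 15 were called higher (limma, Benjamini-Hochberg adjusted p under 0.05), against 19.5% of all 32768 probe sets tested. In either direction 36.5% of all were called. The count called lower was 0 by the same limma test, against 17% of all, with 1 member probe set lower at an unadjusted p under 0.05. At least 2-fold higher were 11 of the 25, or 44%, against 9.23% of all probe sets. The arrays of D20 lay above those of pU6-2 without overlap for 17 member probe sets and below them for 2, against 25.1% and 22.1% of all probe sets tested. The median log2 fold change of the 25 was 0.57, beside 0.03 over all probe sets. Since the genes were chosen with earlier results known, these shares describe them and are no independent evidence of a direction. Probe sets of a gene share their target and are not independent of each other. Fold changes are on the scale of log2(signal + 16), D20 minus pU6-2, which understates the change of dim probe sets.

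**Figure D1:**
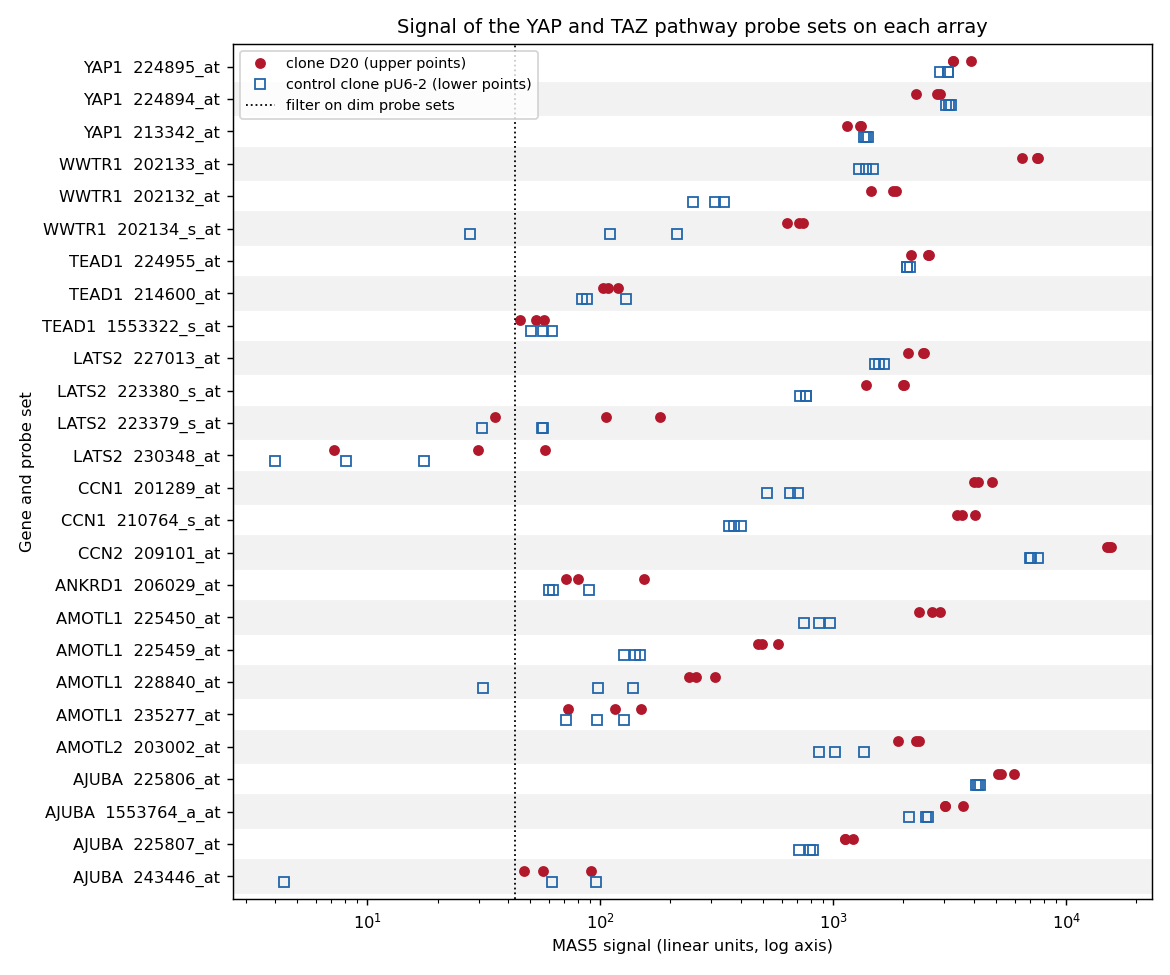
MAS5 signal (log axis) of each of the 26 probe sets on each array, with clone D20 as filled circles above and control clone pU6-2 as open squares below. The groups are widely separated for WWTR1 and CCN1, close together for YAP1 and TEAD1, and mixed for ANKRD1 and for the dim probe sets of LATS2, AMOTL1 and AJUBA.

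The comparison of the co-activators began with WWTR1, whose 3 probe sets all rose. Probe set 202133_at had signals of 7489.1, 6453.5 and 7557.8 on the D20 arrays, against 1378.5, 1293.1 and 1474.2 on the pU6-2 arrays. Every D20 array was thus far brighter than any pU6-2 array. The means were 7166.8 ± 618.7 in D20 and 1381.9 ± 90.6 in pU6-2 (SD, n = 3 each), with a log2 fold change of 2.36 ± 0.10 (SE) and a limma adjusted p of 2.15e-09. Probe set 202132_at read 1857, 1455.8 and 1801.9 in D20, against 249.8, 311.3 and 339.2 in pU6-2, a log2 fold change of 2.45 ± 0.16. The dimmest, 202134_s_at, read 741, 712.8 and 635 in D20, against 109.7, 213.7 and 27.5 in pU6-2. Its pU6-2 arrays were widely spread, and its log2 fold change of 2.72 had a wider SE of 0.44, with the groups still apart. The 95% intervals of the 3 probe sets overlapped, the lowest bound being 1.76 and the highest 3.68.

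YAP1 behaved otherwise. Probe set 224895_at read 3255, 3279.5 and 3895.1 in D20, against 2876.2, 3095.4 and 3095.7 in pU6-2, so that D20 was slightly above. Probe set 224894_at read 2869.6, 2255.7 and 2786.7 in D20, against 3214.3, 3059.9 and 3137.3 in pU6-2, so that D20 was below. Probe set 213342_at read 1314, 1298.6 and 1145.2 in D20, against 1407.2, 1356.4 and 1382.9 in pU6-2, again with D20 below. In none of the 3 did the groups overlap, yet the shifts were small and of opposite sign. The log2 fold changes were 0.20 (95% interval -0.01 to 0.41), -0.26 (-0.48 to -0.03) and -0.14 (-0.38 to 0.09), with limma adjusted p of 0.136, 0.0732 and 0.335. Probe set 224894_at passed the test as lower with each array centred on its median (limma adjusted p = 0.0211) and without D20 replicate A (adjusted p = 0.0461). Probe set 224895_at passed it as higher with spike-in scaling (limma adjusted p = 0.0139), where 213342_at turned to 0.07. No direction can therefore be given for YAP1, and the 3 intervals hold changes of at most 0.41 upward and 0.48 downward on the log2 scale.

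Whether paralogs or probe sets of a gene moved unequally was asked for 10 pairs, chosen after their values were seen, by a two-sided exact permutation test of the within-array log2 difference over the arrays. With 3 arrays against 3 this test cannot go below 0.1, and 9 of the 10 pairs gave 0.1 (0.111 adjusted over the 10 pairs), the differences of the clones not overlapping. The other pair, LATS2 227013_at and LATS1, overlapped. The change of WWTR1 (202133_at) exceeded that of YAP1 by 2.16 on the log2 scale against the brightest YAP1 probe set (224895_at) and by 2.62 against the one with the lowest change (224894_at). The change of the 2 YAP1 probe sets 224895_at and 224894_at differed by 0.45, and that of 224895_at and 213342_at by 0.34.

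TEAD1, a DNA-binding partner of YAP and TAZ, had 1 bright and 2 dim probe sets. The bright one, 224955_at, read 2158.4, 2558.9 and 2570.6 in D20, against 2136.7, 2077.3 and 2075.3 in pU6-2. D20 lay above with no overlap but by a narrow margin at array A, and the log2 fold change was 0.21 (95% interval -0.01 to 0.42, limma adjusted p = 0.129). It passed the test with spike-in scaling (limma adjusted p = 0.00977, log2 fold change 0.42) and without D20 replicate A (adjusted p = 0.0448, 0.29). Probe sets 214600_at and 1553322_s_at overlapped between the clones. They read 102.3, 107.8 and 119.1 in D20, against 87.3, 83.6 and 129 in pU6-2, and 57.2, 52.8 and 45.3 in D20, against 57, 61.9 and 50.5 in pU6-2. Their 95% intervals ran from -0.58 to 0.85 and from -1.05 to 0.85 on the log2 scale, too wide to place the change.

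**Figure D2:**
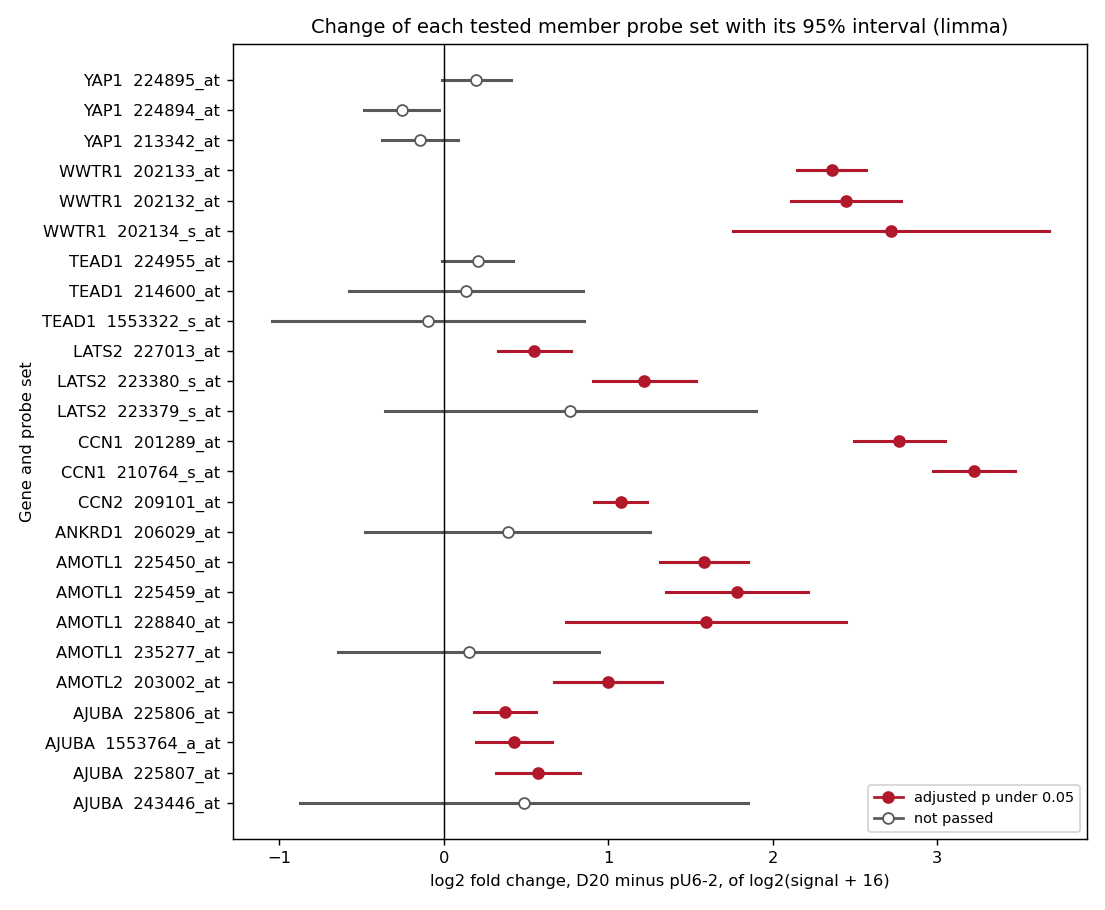
Log2 fold change of each tested member probe set, D20 minus pU6-2, with its 95% interval from limma (filled red points passed the test). The 3 WWTR1 and the 2 CCN1 probe sets lie above 2, the AMOTL1 probe sets that passed lie near 1.6 to 1.8, and YAP1 and TEAD1 lie around 0.

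CCN1 and CCN2 encode secreted matricellular proteins that bind integrins, also known as CYR61 and CTGF, and are widely used as readouts of YAP and TAZ activity. The 250 bases before the start of CCN2 and of ANKRD1 are shown because they hold more than 1 copy of the core TEAD motif GGAATG (capitals, either strand, written along the gene's own strand). They are from RefSeq on GRCh38.p14, at chr6:131951373-131951622 (minus strand) and chr10:90921088-90921337 (minus strand).
CCN2: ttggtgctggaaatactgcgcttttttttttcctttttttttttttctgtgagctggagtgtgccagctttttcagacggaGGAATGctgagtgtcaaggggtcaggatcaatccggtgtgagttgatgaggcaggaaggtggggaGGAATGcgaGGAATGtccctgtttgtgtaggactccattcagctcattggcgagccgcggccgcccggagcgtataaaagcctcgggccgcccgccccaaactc
ANKRD1: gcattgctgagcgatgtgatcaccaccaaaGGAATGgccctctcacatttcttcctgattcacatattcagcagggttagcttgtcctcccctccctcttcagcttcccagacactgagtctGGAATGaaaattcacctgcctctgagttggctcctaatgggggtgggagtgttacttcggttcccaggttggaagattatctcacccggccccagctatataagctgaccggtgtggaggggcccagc
The first bases of the 3 copies in CCN2 lie 169, 104 and 95 bases before the start, and those of the 2 copies in ANKRD1 lie 220 and 128 bases before it.

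Of all 35116 RefSeq windows of 250 bases, 11.9% held GGAATG or its reverse complement CATTCC at least once, 0.94% at least 2 times and 0.0826% (29 windows) at least 3 times. The table held 11 windows of 8 members, and 5 of these windows, each of another gene, held the motif. CCN1 and TEAD1 were the members it did not list. The 3 further windows with a single copy are shown as stretches of 30 bases, to set beside the values of their genes: YAP1 at chr11:102110273-102110302 (plus strand), AMOTL2 at chr3:134374499-134374528 (minus strand) and AJUBA at chr14:22976884-22976913 (minus strand).
YAP1: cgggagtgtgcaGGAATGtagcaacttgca
AMOTL2: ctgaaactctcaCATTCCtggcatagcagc
AJUBA: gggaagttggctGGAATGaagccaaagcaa
AMOTL2 and AJUBA each had a second start whose window held no copy, and the windows of WWTR1, LATS2 and AMOTL1 held none. The motif thus stood before members that rose (CCN2, AMOTL2, AJUBA) and before members that did not pass the test (YAP1, ANKRD1), and other members that rose lacked it in this window (WWTR1, AMOTL1, LATS2). A match is a description of the letters and was not tested as a binding site.

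CCN1 had the largest change among the 10 genes. Probe set 210764_s_at read 3407.5, 4039.3 and 3568.8 in D20, against 355.8, 402.5 and 375 in pU6-2. Probe set 201289_at read 4815.5, 4165.1 and 4011.7 in D20, against 704.8, 517.9 and 649.1 in pU6-2. Both sets of arrays were far apart, with ratios of means of 9.72 and 6.94. The log2 fold changes were 3.23 ± 0.12 and 2.77 ± 0.13 (SE), with limma adjusted p of 6.54e-10 and 5.79e-09.

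CCN2 had 1 probe set, 209101_at, which was bright in both clones. It read 14975.1, 15512.2 and 15267.9 in D20, against 7076.5, 7596.2 and 7013.1 in pU6-2. The D20 arrays differed little among themselves, and the means of 15251.7 ± 268.9 in D20 and 7228.6 ± 319.9 in pU6-2 (SD, n = 3 each) gave a ratio of 2.11. The log2 fold change of 1.08 ± 0.07 (SE) had the smallest standard error among the member probe sets (limma adjusted p = 1.95e-07). The change of CCN1 (201289_at) exceeded that of CCN2 by 1.69 on the log2 scale. The other CCN genes, CCN3, CCN4, CCN5 and CCN6, were all below the filter and were not tested, with means in D20 of 66.2, 11.4, 16.9 and 23.2 and in pU6-2 of 28.6, 51.4, 10.6 and 22.5.

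ANKRD1, a nuclear ankyrin-repeat protein of stressed muscle and a common YAP target, was dim. Its probe set 206029_at read 79.9, 154.2 and 71.1 in D20, against 89.5, 60 and 62.8 in pU6-2. The groups overlapped, and the D20 mean rested on array B. The log2 fold change was 0.39 with a 95% interval of -0.48 to 1.26 (limma adjusted p = 0.491), and without D20 replicate B it was 0.09. A rise as large as that of CCN2 lies inside this interval, while one as large as that of CCN1 does not.

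Among 13780 other genes, each by its brightest tested probe set, those whose centred log2 profile over the 6 arrays lay nearest to CCN1 were MELTF, GALNT3 and CSGALNACT1 (root mean square difference 0.12 to 0.13). Nearest to CCN2 were SNX7, ABCB1 and CP (0.04 to 0.05). With 2 clones such a profile is mostly the size of the difference between them.

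LATS2, the Hippo kinase that phosphorylates YAP and TAZ, rose in 2 of its 3 tested probe sets. Probe set 223380_s_at read 1995.8, 1385.3 and 2009.6 in D20, against 766.1, 765.2 and 722.8 in pU6-2. Probe set 227013_at read 2435.6, 2094.5 and 2452.9 in D20, against 1658.4, 1511.3 and 1569.5 in pU6-2. In both the D20 array B was the lowest of its clone and still above every pU6-2 array. The log2 fold changes of 1.22 ± 0.15 and 0.55 ± 0.10 (SE, limma adjusted p = 2.49e-05 and 9.37e-04) differed by 0.67 between the probe sets, so that the size of the rise depends on which is read. Probe set 223379_s_at read 179.5, 105.4 and 35.3 in D20, against 30.9, 56.7 and 55.9 in pU6-2, with overlapping groups (limma adjusted p = 0.281). Probe set 230348_at, with 7.2, 29.8 and 57.7 in D20 against 17.5, 4 and 8.1 in pU6-2, was below the filter and not tested.

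LATS1, its paralog, had a log2 fold change of 0.06 ± 0.23 (SE) in the probe set read here (limma adjusted p = 0.857). The means were 710.1 ± 214.9 in D20 and 666.4 ± 146.2 in pU6-2 (SD, n = 3 each). None of its 3 tested probe sets passed the test. The change of LATS2 exceeded that of LATS1 by 0.49 on the log2 scale in its brightest probe set, 227013_at, where the within-array differences of the clones overlapped (exact permutation p = 0.2, 0.2 adjusted over the 10 pairs). In 223380_s_at, the LATS2 probe set with the larger change, it exceeded it by 1.16 with no overlap.

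AMOTL1 and AMOTL2 belong to the angiomotins, scaffold proteins that bind YAP and TAZ and hold them outside the nucleus. AMOTL1 rose in 3 of 4 probe sets. Probe set 225450_at read 2337.6, 2640.3 and 2866.1 in D20, against 968, 751.4 and 870.5 in pU6-2, and 225459_at read 476.1, 495.4 and 577.9 in D20, against 147.7, 141.3 and 125.9 in pU6-2. Every D20 array was far brighter than any pU6-2 array in both, and the log2 fold changes were 1.58 ± 0.12 and 1.78 ± 0.20 (SE, limma adjusted p = 5.84e-07 and 1.46e-05). Probe set 228840_at read 311.4, 239.8 and 258.6 in D20, against 31.4, 97.3 and 138.7 in pU6-2, again with no overlap (limma adjusted p = 0.00618). The dim probe set 235277_at overlapped between the clones, with means of 112.7 ± 38.6 in D20 and 98.2 ± 27.4 in pU6-2 (SD, n = 3 each) and an interval of -0.64 to 0.95 on the log2 scale.

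AMOTL2 had 1 probe set, 203002_at, with 2256, 1890.3 and 2325 in D20, against 1360, 872 and 1019.9 in pU6-2. The groups did not overlap although the pU6-2 arrays were spread, and the log2 fold change was 1.00 ± 0.15 (SE, limma adjusted p = 1.92e-04). The change of AMOTL1 (225450_at) exceeded that of AMOTL2 by 0.58. AMOT, the founding member of the family, was below the filter with 58.0 ± 43.6 in D20 and 36.8 ± 26.7 in pU6-2 (SD, n = 3 each) and was not tested.

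AJUBA, a LIM-domain protein of cell junctions that binds and inhibits LATS kinases, had a small rise in its 3 bright probe sets. Probe set 225806_at read 5938.4, 5247.6 and 5089.4 in D20, against 4104.3, 4168.2 and 4266.4 in pU6-2. Probe set 225807_at read 1127.2, 1218 and 1125.9 in D20, against 817.6, 712.1 and 791.1 in pU6-2. Probe set 1553764_a_at read 3595.3, 3025.8 and 3024.6 in D20, against 2120.3, 2490.6 and 2542.5 in pU6-2. All 3 were without overlap. In the order given, the log2 fold changes were 0.37, 0.57 and 0.43 (limma adjusted p = 0.00433, 0.00203 and 0.00674). Probe sets 225806_at and 1553764_a_at did not pass the test with median centring (limma adjusted p = 0.0662 and 0.0671) or without the variance trend (0.0598 and 0.0665), while 225807_at passed it in every alternative run. The dim probe set 243446_at overlapped between the clones (56.7, 91.2 and 46.9 in D20, against 4.4, 95.9 and 62 in pU6-2).

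Scaling moved all of these values together. Centring each array on its median put the median of all probe sets at -0.09 and spike-in scaling put it at 0.23, against 0.03 as deposited. The log2 fold change of CCN2 was then 0.96 and 1.29, that of WWTR1 202133_at 2.24 and 2.57, and that of AMOTL2 0.88 and 1.21.

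**Figure D3:**
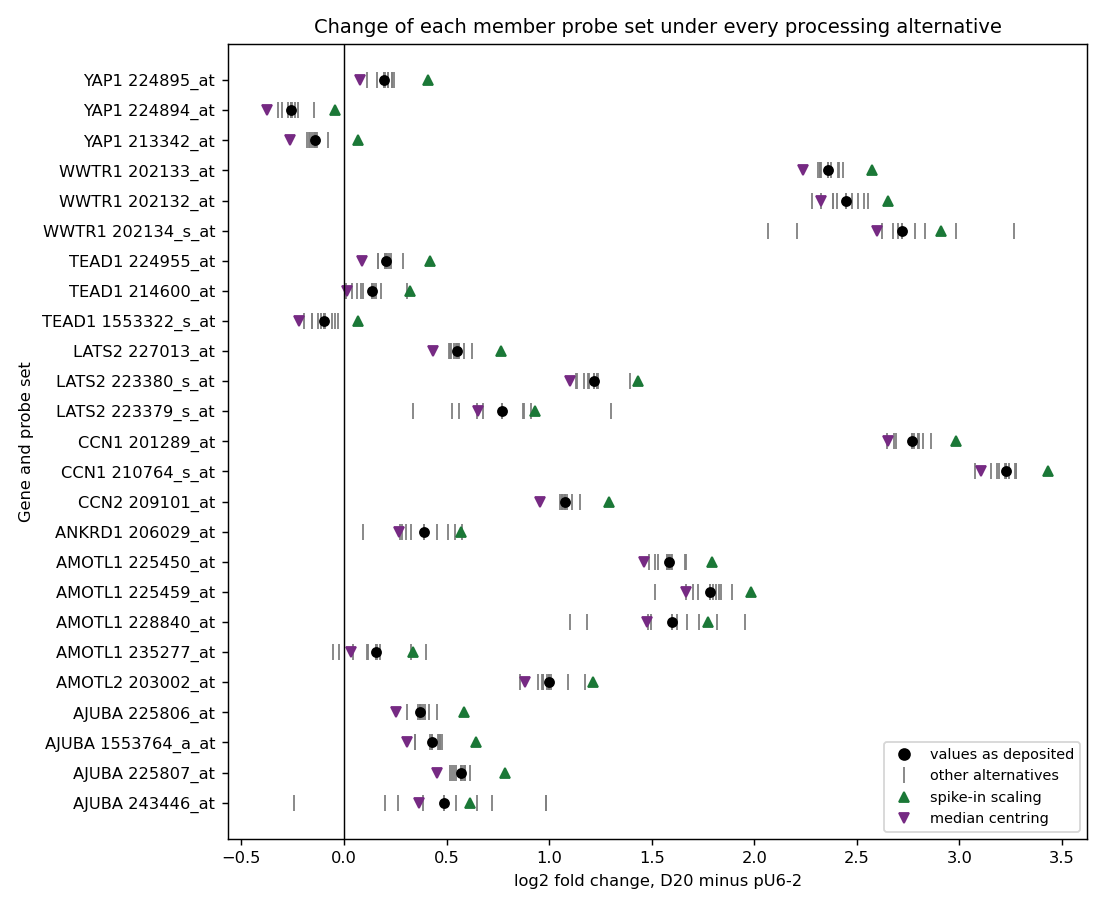
Log2 fold change of each tested member probe set, D20 minus pU6-2, as deposited (black circles), with median centring (purple triangles pointing down), with spike-in scaling (green triangles pointing up) and under the other alternatives, each array left out in turn included (grey ticks). The values of WWTR1, CCN1, CCN2 and AMOTL2 lie above 0 throughout, and those of YAP1 lie on both sides of 0.

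The other genes of the pathway were read from lists chosen with earlier results of these data known, each gene by its brightest tested probe set, those specific to 1 gene by their identifier first. The background at the level of genes was 22.5% called higher and 19.7% called lower of 13781 genes, with a median log2 fold change of 0.04. Of 26 Hippo kinases and upstream regulators 23 were tested, and 7 were higher and 1 lower, with a median of 0.22. WWC1 (1.49 ± 0.16, SE), also known as KIBRA, an activator of the LATS kinases, rose in 6 of its 7 tested probe sets, and WTIP (1.48 ± 0.30), a LIM protein related to AJUBA, rose too. MOB1B (0.67), a LATS co-activator, STK3 (0.60), which encodes the kinase MST2, PTPN14 (0.57), a phosphatase that binds YAP, and FAT1 (0.57), a giant cadherin, were also higher. STK3 was called higher in 1 of its 2 tested probe sets and PTPN14 in 2 of 4. MOB1B did not pass the test without the variance trend (limma adjusted p = 0.106), without pU6-2 replicate B (0.0714) or without D20 replicate C (0.0786), and PTPN14 not without the variance trend (0.0594). STRN3, the 1 gene called lower and named for that reason, stood at -0.43 with overlapping groups (limma adjusted p = 0.0445). Its other tested probe set did not pass the test. No gene of the list was called lower by limma with a pseudocount of 1, without a filter, with spike-in scaling, without pU6-2 replicate A or C, or without D20 replicate A or B. STK4, which encodes MST1, had a log2 fold change of -0.01 (limma adjusted p = 0.962). NF2, the tumour suppressor merlin upstream of LATS, had one of 0.08 in the probe set read here (limma adjusted p = 0.659), while 2 of its 8 tested probe sets were called higher. With spike-in scaling 11 of these genes were higher and 0 lower by limma, and without the variance trend 4 were higher.

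Among TEAD factors and VGLL cofactors, which compete with YAP and TAZ for TEAD or bind beside them, 6 of 7 genes were tested. Of these 2 rose and 2 fell, beside 22.5% and 19.7% of all genes. VGLL3 read 1077.7, 716.3 and 1064.2 in D20, against 192.5, 172.1 and 217.3 in pU6-2, a log2 fold change of 2.19 ± 0.19 (SE). VGLL4, a repressor of TEAD activity, read 3754.6, 4082.8 and 3677.7 in D20, against 1853.2, 1679.6 and 1849 in pU6-2, a log2 fold change of 1.09 ± 0.09. Both of the tested probe sets of each gene rose. TEAD4 read 534.8, 540.8 and 413.3 in D20, against 824.6, 877.5 and 663.6 in pU6-2, a log2 fold change of -0.65 ± 0.16 that both of its probe sets shared in direction (limma adjusted p = 0.00676). TEAD3 stood at -0.58 (limma adjusted p = 0.0302), with 461.7, 282 and 379.5 in D20 against 513.1, 543.8 and 624.8 in pU6-2. With spike-in scaling neither fall passed the test (limma adjusted p = 0.172 for TEAD3 and 0.0536 for TEAD4). TEAD3 also did not pass it without the variance trend (0.0792) or without any 1 of pU6-2 replicates B and C (0.0607 and 0.122) and D20 replicates B and C (0.0951 and 0.0536). TEAD2 had a log2 fold change of -0.14 in the probe set read (limma adjusted p = 0.56), while 1 of its 4 tested probe sets was called higher. The change of TEAD1 (224955_at) exceeded that of TEAD4 by 0.86 on the log2 scale.

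A signature of YAP and TAZ targets in cancer cells, outside the members, held 17 genes (PTPN14 is also among the upstream regulators). Of these 15 were tested, and 9 rose and 3 fell, with a median log2 fold change of 0.57. Of all genes 22.5% were called higher and 19.7% lower, so that the count lower was near the background share. AXL, a receptor tyrosine kinase, read 431.6, 531.2 and 603.7 in D20, against 54.9, 40.4 and 13.3 in pU6-2 (log2 fold change 3.45 ± 0.35, SE). MYOF, myoferlin, read 742.1, 701.5 and 994.3 in D20, against 86.8, 109.5 and 81.8 in pU6-2 (2.92 ± 0.21). TGFB2, a ligand of the TGF-beta receptors, read 3049.3, 3384.8 and 3255.8 in D20, against 523.8, 488.5 and 453.2 in pU6-2 (2.69 ± 0.11), and CRIM1 rose by 2.07. For MYOF, TGFB2 and CRIM1 every tested probe set was called higher (2, 4 and 3). AXL had 1 tested probe set of 2. Its pU6-2 mean of 36.2 lay below the 43.2 units of the filter, which it passed through the D20 arrays. Other targets went the opposite way. NT5E, the ecto-nucleotidase CD73, read 358.4, 429.1 and 262.9 in D20, against 5649.2, 6077.1 and 6474.8 in pU6-2 (log2 fold change -4.08 ± 0.15), with 3 of its 4 probe sets lower. FJX1 read 107.1, 166.9 and 90.8 in D20, against 853.1, 762.8 and 1022.1 in pU6-2 (-2.73 ± 0.23). IGFBP3, a binding protein of insulin-like growth factors, fell by 0.79. Single genes of the signature thus changed strongly in either direction. Without a filter or without the variance trend 6 of its genes were higher.

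Genes of the actin cytoskeleton and of SRF and its MRTF co-activators, a pathway that also drives CCN1 and CCN2, were higher in 6 of 14 cases and lower in 0 (limma), with a median of 0.47. At an unadjusted p under 0.05, 0 were lower, against 3204 of all 13781 genes. With gene means over probe sets 8 were higher. TAGLN and MYL9 did not pass in the probe sets that stand for them (limma adjusted p = 0.0642 and 0.0655). Yet 2 of the 3 tested probe sets of TAGLN and 1 of the 2 of MYL9 were called higher. FHL2, a LIM-domain cofactor, read 1104.6, 1184.8 and 1171.3 in D20, against 35, 70.6 and 65.1 in pU6-2 (log2 fold change 4.04 ± 0.23, SE). MRTFA (0.84), MRTFB (0.57) and VCL (0.38), which encodes vinculin, rose as well, and so did the smooth muscle gene CNN1 (1.75) from a dim probe set. MRTFB was called higher in 1 of its 2 tested probe sets. TPM1, a tropomyosin, rose in 4 of 4 tested probe sets, by 1.49 in the dim probe set that stands for it here and by 2.40 to 2.55 in 3 bright ones that are not specific by their identifier. CNN1, VCL and the dim TPM1 probe set each missed the threshold in 4 or more alternatives. The means of CNN1 (103.9 in D20 and 26.3 in pU6-2) and of this TPM1 probe set (102.1 and 28.7) exceeded 43.2 units only in D20. Both thus passed the filter through the D20 arrays, and their calls, among the 6, are no support for a direction. SRF had a log2 fold change of -0.06 (limma adjusted p = 0.796).

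**Figure D4:**
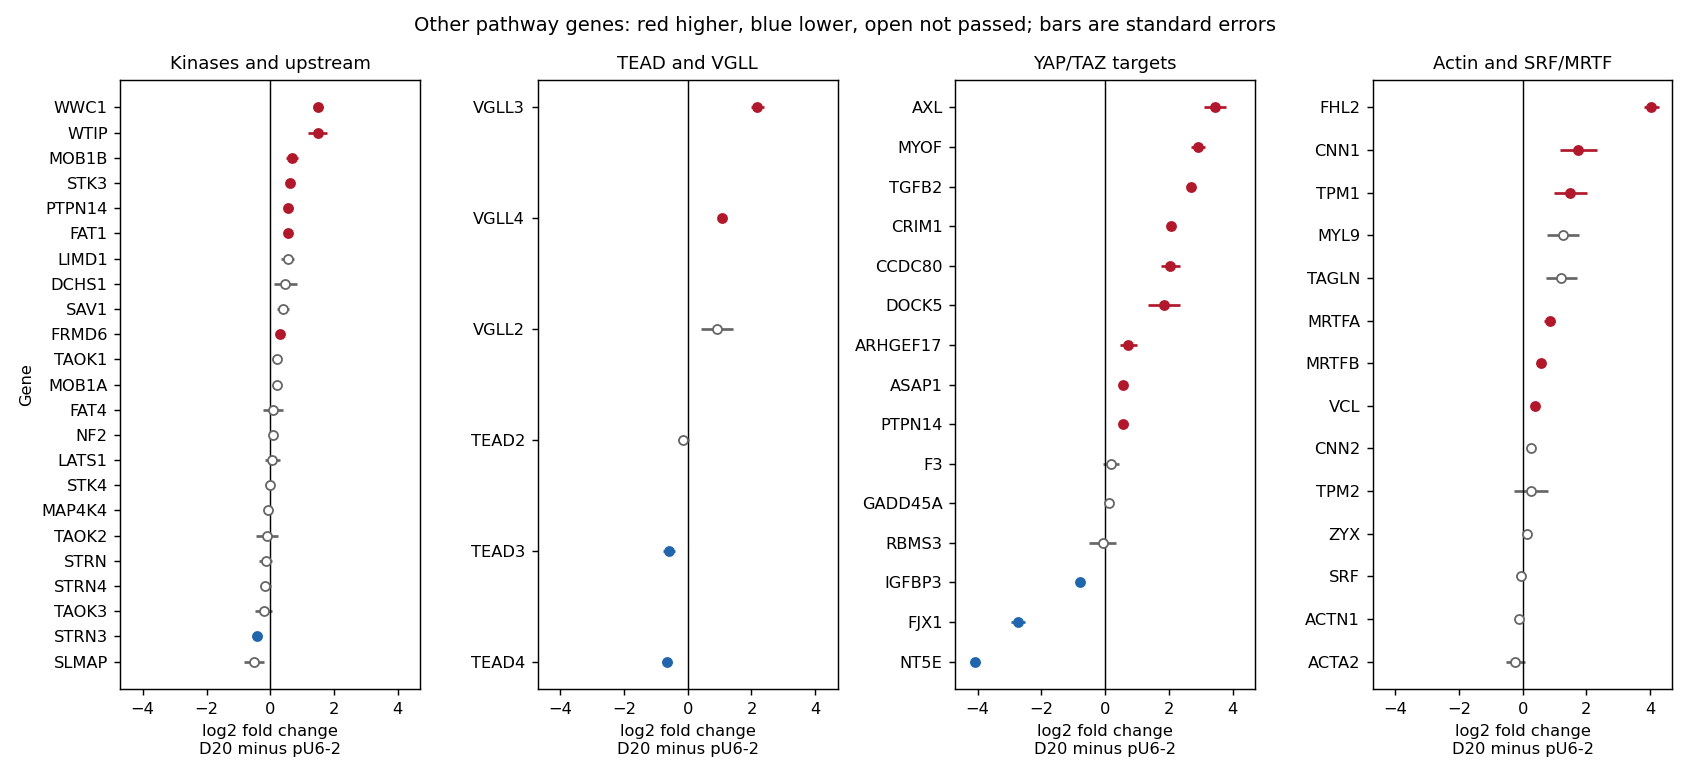
Log2 fold change, D20 minus pU6-2, of each tested gene of the 4 further lists, with its standard error (red called higher, blue called lower, open not passed). Each gene is shown by its brightest tested probe set among those specific to 1 gene by their identifier, or among the others where it had none. For some genes, such as TPM1, this is not the brightest of all. The upstream regulators lie mostly between -0.5 and 0.7, while the target signature spreads from NT5E at -4.08 to AXL at 3.45.

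The surroundings of the members on the chromosomes were read as a description, from the 10 nearest tested genes on each side in RefSeq order. Around AMOTL1 the median log2 fold change of these 20 neighbours was 0.50, with 10 called higher and 1 lower, and around YAP1, on the same chromosome, it was 0.47, with 7 higher and 1 lower. Around TEAD1, which lies on that chromosome as well, it was -0.32, with 4 higher and 10 lower. Around the other 7 members it lay between -0.11 and 0.16. AMOTL1 (1.58) thus lay above the median of its neighbours, while YAP1 (0.20 in its brightest probe set) lay below the median of its own and TEAD1 (0.21) above. The part of such regional shifts in the members' values was not tested.

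**Figure D5:**
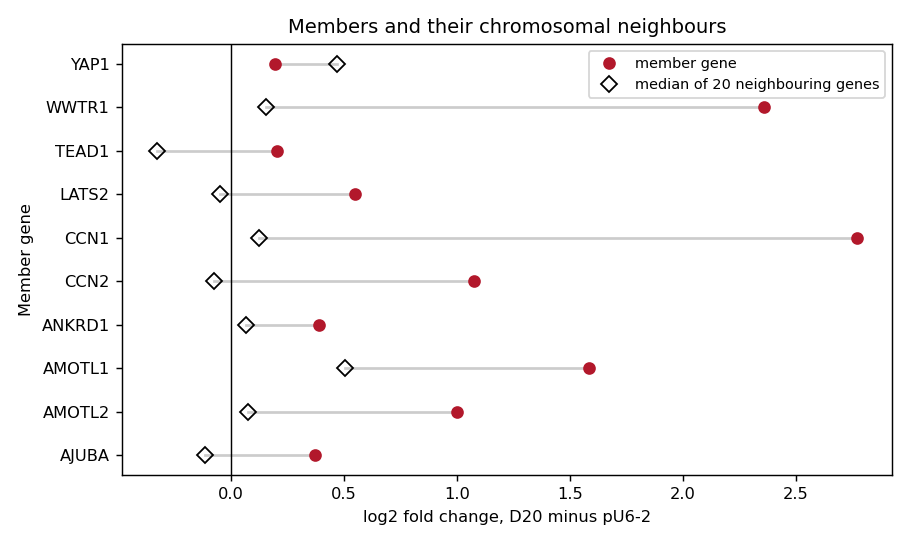
Log2 fold change, D20 minus pU6-2, of each member by its brightest probe set (red circles) and the median of its 20 neighbouring tested genes (open diamonds). The neighbours of AMOTL1 and YAP1 lie near 0.5 and those of TEAD1 near -0.3.

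Arrays of D20 correlated at 0.943 to 0.952 with each other, those of pU6-2 at 0.954 to 0.957, and arrays of different clones at 0.908 to 0.919 (Pearson's r of log2 values, taken across probe sets, so not a correlation over replicates). The 3′ to 5′ signal ratio of the ACTB control was 1.40 to 1.68 in D20 and 1.42 to 1.90 in pU6-2, and that of GAPDH 1.11 to 1.25 in D20 and 1.08 to 1.15 in pU6-2. Each marker gene was read by 1 probe set, chosen as for the other lists, and the counts and sums of markers depend on this choice. Of 13 hepatocyte markers 9 were lower and 2 higher in D20, with a summed signal of 74294 to 86586 in D20 and 176154 to 178773 in pU6-2. The brightest of them, APOA2 (44474 in D20 and 50573 in pU6-2), did not pass the test in this probe set, while its other tested probe set was called lower. APOB, AHSG and FGG were called lower (log2 fold changes of -1.20, -1.87 and -2.17) and stayed bright in both clones. AFP averaged 403.5 in D20 and 20569 in pU6-2, a log2 fold change of -5.62, and FABP1, TTR and ALB were lower too, with -4.52, -2.99 and -2.39. For ALB this depends on the probe set: of its 4 tested, 1 was called lower, the one read here, and 1 higher. FGA and FGB were the 2 called higher. Of 6 biliary and progenitor markers 4 were higher (PROM1, EPCAM, KRT19 and SPP1) and SOX9 was lower. KRT19 did not pass the test with median centring (limma adjusted p = 0.121), without the variance trend (0.106) or without pU6-2 replicate A (0.0943) or D20 replicate A (0.0779) or B (0.0503), and EPCAM not without the variance trend (0.0546). The biliary and progenitor markers had a sum of 46262 to 50294 in D20 and 32475 to 33974 in pU6-2. Of 9 fibroblast markers 1 was higher and 2 were lower. Their sum of 4282 to 4993 in D20 and 1244 to 1409 in pU6-2 was carried in D20 by COL1A1 (3780 in D20 and 1.23 in pU6-2), while LUM stood at 8.3 in D20 and 160.4 in pU6-2, and COL3A1 and POSTN were below the filter. COL1A1 was called higher in 2 of its 4 tested probe sets. In the COL1A1 probe set read here the pU6-2 signals of 1.3, 1.7 and 0.7 were at the floor. Of 6 endothelial markers 1 was tested, PECAM1, and it was higher in 1 of its 2 tested probe sets (213.1 in D20 and 62.5 in pU6-2, log2 fold change 1.63, limma adjusted p = 0.00421), while VWF, CDH5, KDR, TEK and TIE1 were below the filter. Their sum was 306 to 345 in D20 and 115 to 207 in pU6-2. Of 5 blood markers 1 was lower (LCP1, 62 in D20 and 171.2 in pU6-2), with PTPRC and CD3D below the filter and a sum of 218 to 278 in D20 and 406 to 556 in pU6-2. CD14 and ITGAM were tested and did not pass (limma adjusted p = 0.141 and 0.0852). LCP1 did not pass the test without a filter (limma adjusted p = 0.0652) or without the variance trend (0.0708). It also failed without pU6-2 replicate B (0.126) or C (0.0578) or D20 replicate C (0.0786). The part of these differences in the members' values was not tested.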

How the data were processed

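The values deposited are linear signal intensities for each probe set on each of 6 arrays, made by the authors with MAS5 per the submitters' processing notes. The MAS5 version and scaling target are not stated, and detection calls were not used. Gene symbols came from the platform annotation in GEO, updated by Entrez identifier to RefSeq (GRCh38.p14). Of 54675 probe sets 41091 had 1 symbol and 1801 several. Of the listed genes, those without a probe set of their own were not analysed here.

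Signals were taken as log2(signal + 16). After 62 control probe sets and the dimmest 40% were left out, 32768 were tested with limma 3.58.1 in R 4.3.3 (variance trend, Benjamini-Hochberg adjustment over all of them, threshold 0.05, two-sided). The fit was tested on simulated data. Members and lists were chosen with earlier results of these data known. Array letters did not pair arrays across clones (correlation of deviations from -0.021 to 0.052). Besides the members, the text names up to 6 called genes of each list with the largest changes, up to 4 of the brightest of each marker list, and 9 pathway genes whatever their values, plus genes it singles out after their values were seen. The alternatives were pseudocounts of 1 and 64, other filters, quantile, median and poly-A spike-in scaling (24 probe sets), no variance trend, a replicate block, gene means over probe sets and each array left out in turn. The number of arrays limits the precision.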

Additional observations from a re-analysis of the deposited data

How the results depend on the processing

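In 354 of 369 refits of single member probe sets the direction and the side of the threshold were those given above, 4 lost a call, 6 gained one and 5 changed sign, none of the 5 from a called value. WWTR1, CCN1, CCN2, AMOTL2, 3 AMOTL1, 2 LATS2 probe sets and AJUBA 225807_at kept their calls in every alternative run. The share of all probe sets called was 20.2% without a filter, against 36.5%, since more dim probe sets enter. Of the calls 53.5% were higher in D20, with 42.0% under median centring and 72.5% under spike-in scaling. The count of members called lower was 1 (YAP1 224894_at) with median centring, 1 with the replicate block (adjusted p = 0.0378) and 0 to 1 with single arrays left out. The array letters share only a name: 2 of 6 arrays correlated best with their own letter. Hippo regulators higher were 11 with spike-in scaling and 4 without the variance trend. Hippo regulators lower were 0 with a pseudocount of 1, without a filter and with spike-in scaling, 2 with the lowest 60% left out and 0 to 1 with single arrays left out. TEAD and VGLL genes lower were 0 with spike-in scaling, 1 without the variance trend and 1 to 2 with single arrays left out, and actin and SRF genes lower were 1 with median centring. Signs turned for uncalled values: with spike-in scaling TEAD1 1553322_s_at to 0.067, YAP1 213342_at to 0.068, STK4 to 0.20, TEAD2 to 0.071 and APOA2 to 0.016, with quantile normalization LATS1 to -0.010, and with median centring LATS1 to -0.055 and NF2 to -0.036. With single arrays left out AMOTL1 235277_at ranged from -0.053 to 0.40, AJUBA 243446_at from -0.24 to 0.98, STK4 from -0.079 to 0.11, LATS1 from -0.13 to 0.34 and NF2 from -0.017 to 0.17. The causes were not tested. Dim probe sets and 3 arrays a clone limit what could be resolved.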
